A study of Homo sapiens with 6 samples.

Results

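The nuclear pore complex proteins (nucleoporins) and the receptors that carry cargo through the pore were examined in PANC-1, a human cell line established from a pancreatic ductal carcinoma, after silencing of the RNA methyltransferase METTL16. Members were defined by gene symbol, and the choice was made with earlier results of these data known. The rule took symbols made of NUP and a number, the KPNA, KPNB1, TNPO, IPO and XPO families, and CSE1L, TPR, RANBP2, POM121 and NDC1. This rule matched 56 of the 58735 genes in the deposited table, of which 50 were genes (25 nucleoporins and 25 transport receptors) and 6 were pseudogenes. The symbol NUP42 was not among them, since that gene stands in the table under its older symbol NUPL2. RNA-seq was performed on 3 samples transfected with control siRNA (si-NC) and 3 samples transfected with siRNA against METTL16 (si-METTL16). All 6 samples came from the same cell line, and the titles name no other treatment. The sample titles name the controls si-NC, while another label of these samples calls them WT. The methods describe biological triplicates that were stably transfected, and state elsewhere that stable cells were selected with puromycin. The labels speak only of siRNA transfection, and which METTL16 siRNA was sequenced is not stated.

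The nuclear pore complex is a ring of many copies of each nucleoporin. A Y-shaped complex and an inner ring form its scaffold, and transmembrane nucleoporins anchor it in the nuclear envelope. Nucleoporins rich in phenylalanine-glycine repeats fill the channel, and cytoplasmic filaments and a nuclear basket extend from the faces of the pore. Importins bind cargo in the cytoplasm and exportins bind cargo in the nucleus, and the small GTPase Ran gives transport its direction. Importin alpha proteins read the classical nuclear localization signal and ride into the nucleus on importin beta (KPNB1), and CSE1L returns them to the cytoplasm.

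The counts summed to between 15725298 and 18054436 per sample. METTL16 fell in every si-METTL16 sample, from a mean of 5.76 to 2.03 FPKM (counts per gene length and per total count). Of the ductal markers, KRT8 (151.2 FPKM), KRT18 (174.8 FPKM) and SOX9 (43.05 FPKM) were well detected in si-NC cells, whereas KRT7 (0.949 FPKM), CDH1 (1.66 FPKM) and EPCAM (1.82 FPKM) were low. Of the 7 ductal markers, 4 were lower after silencing, where 17.5% of all tested genes were lower. The 4 were KRT19 (44.8 to 16.7 FPKM, log2 -1.40), CDH1 (log2 -1.09), KRT7 (log2 -0.84) and SOX9 (log2 -0.25). The summed ductal level ranged from 352.2 to 454.5 FPKM in si-NC and from 360.8 to 400.8 FPKM in si-METTL16 samples, and its part in the nucleoporin and receptor results was not tested. The leukocyte marker genes PTPRC, CD3E and LYZ and all listed endothelial, acinar and islet markers were at or near 0. CD68 (1.18 to 1.85 FPKM) and COL1A1 (26.4 to 62.5 FPKM) were higher after silencing, with the other fibroblast markers COL1A2, DCN and LUM near 0.

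Silencing of METTL16 was followed by higher mRNA of many pore and transport genes, including all 5 tested genes of the inner ring of the pore. Of the 48 members with enough counts to be tested, 25 were higher and 2 were lower (adjusted p under 0.05), and 21 did not pass the test. The adjusted p is from edgeR's quasi-likelihood test, adjusted by Benjamini-Hochberg over all 15089 genes tested. The 25 members are 52.1% of those tested, where 18.4% of all tested genes were higher, and the 2 lower members are 4.17%, where 17.5% of all tested genes were lower. The median log2 fold change of the 48 members was 0.28, against 0.00 over all tested genes. Relative to the si-NC mean, the median member stood at log2 values of 0.27, 0.32 and 0.26 in the si-METTL16 samples and at -0.03, 0.01 and 0.01 in the si-NC samples. For 34 members (70.8%) the 3 values of each group did not overlap, 30 of them above and 4 below the controls, while 50.9% of all tested genes had such groups. Of the 21 members not called, 7 had groups that did not overlap, and the like share over all genes not called was not counted. Since these are bulk samples, a different share of cells in some state and a different amount of RNA per cell cannot be told apart.

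Nucleoporins and receptors had different counts. Among 24 tested nucleoporins, 17 (70.8%) were higher and 1 (4.17%) was lower, with a median log2 fold change of 0.41. Among 24 tested receptors, 8 (33.3%) were higher and 1 (4.17%) was lower, with a median of 0.16. Of all tested genes, 18.4% were higher and 17.5% lower. Groups did not overlap for 83.3% of nucleoporins and 58.3% of receptors, so receptors lay nearer to the 50.9% of all tested genes. The difference between both classes was not tested. Changes were moderate, and only NUP35, NUP205 and KPNA6 were called with a log2 fold change of 1 or more in either direction.

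**Figure D1:**
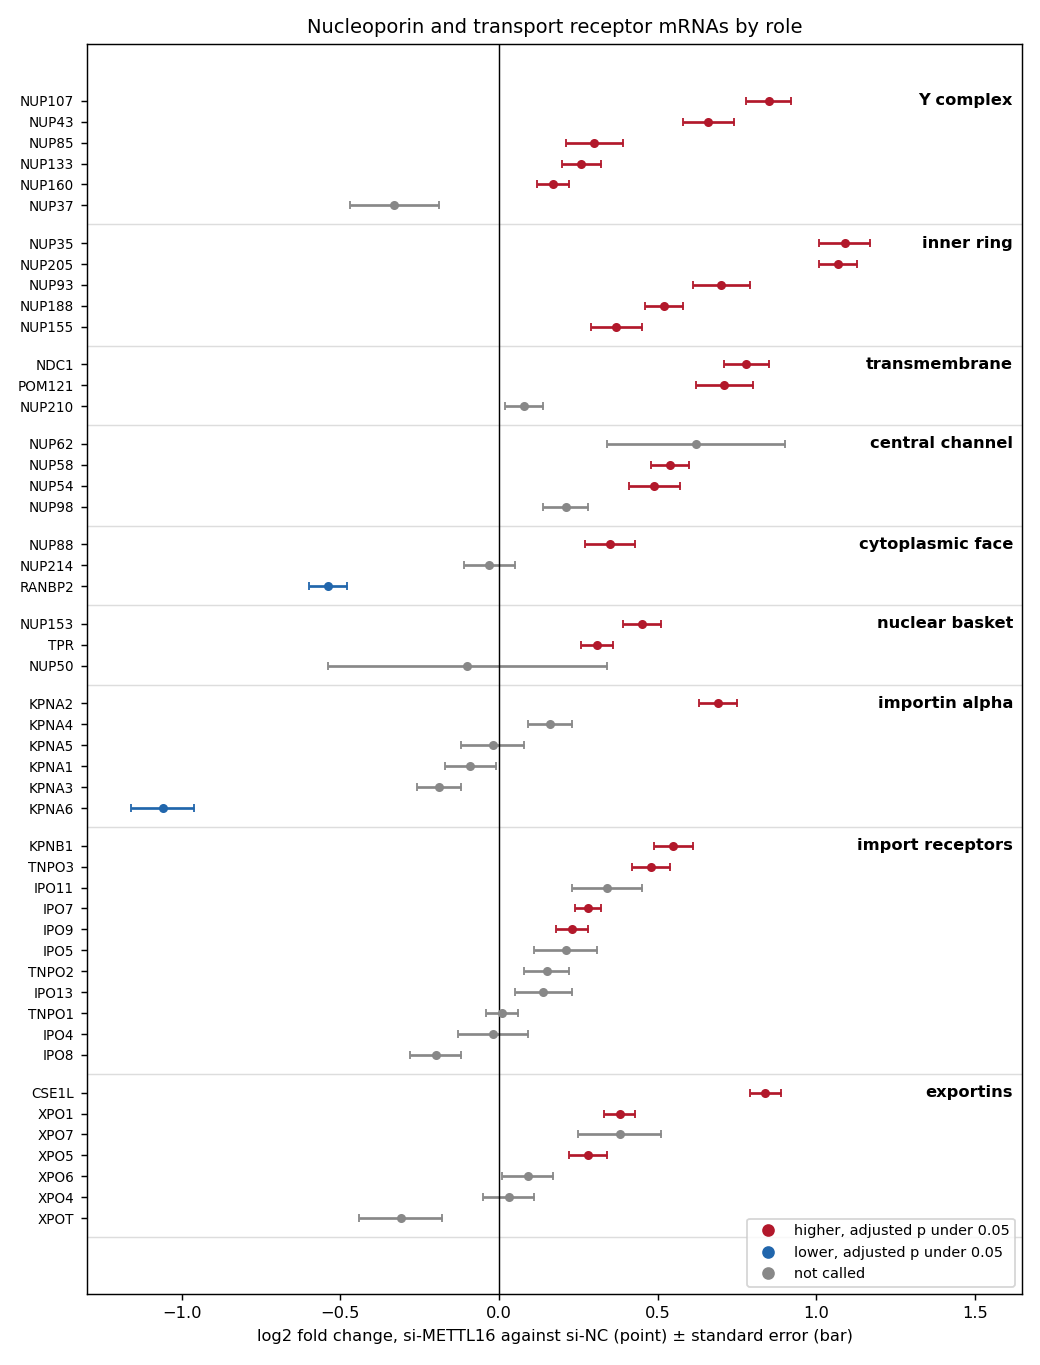
Log2 fold change of si-METTL16 against si-NC samples (points) with its standard error (bars) for the 48 tested members, grouped by role. All 5 inner ring genes lie at 0.37 or above, whereas the importin alpha genes run from -1.06 (KPNA6) to 0.69 (KPNA2).

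Markers of dividing cells moved with the members. Of 10 proliferation markers, 9 were higher, against 18.4% of all tested genes, and MCM6 did not pass the test. The median log2 fold change of the 10 markers was 0.99. Their summed level ranged from 196.6 to 230.7 FPKM in si-NC samples and from 393.5 to 447.3 FPKM in si-METTL16 samples. Their part in these results was not tested.

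In the inner ring, which links the scaffold to the membrane and the channel, all 5 genes were higher, against 18.4% of all tested genes. The summed level of the ring genes rose from 29.8 ± 1.55 to 49.7 ± 1.22 FPKM (SD, n = 3). NUP35 (chromosome 2 from 183117513 to 183161680), a membrane-binding scaffold nucleoporin, had 22.8, 21.7 and 22.2 CPM (counts scaled by TMM to a common total) in si-NC replicates 1, 2 and 3 and 45.5, 50.9 and 45.2 CPM in the si-METTL16 replicates. The lowest silenced sample was thus well above the highest control, and the fold change was 2.12 (log2 1.09, SE 0.08, edgeR adjusted p = 2.1e-04). NUP205 (chromosome 7 from 135557919 to 135648757), a large structural protein of the ring, had 83.8, 93.7 and 91.3 CPM in si-NC and 185.4, 192.9 and 186.0 CPM in si-METTL16 samples. Its groups were also far apart, with a fold change of 2.1 (log2 1.07, SE 0.06, edgeR adjusted p = 1.1e-04). NUP188, the close relative of NUP205, changed less, from 72.4 ± 2.94 to 103.8 ± 3.34 CPM (SD, n = 3; log2 0.52). NUP93, the central linker of the ring, had 30.7, 33.7 and 29.6 CPM in control and 49.4, 48.6 and 54.5 CPM in silenced samples (log2 0.70, SE 0.09, edgeR adjusted p = 0.00122). NUP155, which contacts the membrane, had the smallest change of the ring (log2 0.37, SE 0.08).

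In the Y complex, the outer scaffold, 5 of 6 genes (83.3%) were higher, against 18.4% of all tested genes. Their summed level was 58.2 ± 0.92 FPKM in si-NC and 75.4 ± 2.93 FPKM in si-METTL16 samples (SD, n = 3, all 6 genes). NUP107 (chromosome 12 from 68686734 to 68745809), needed for assembly of the complex, had 90.4, 101.9 and 95.3 CPM in control and 170.0, 184.3 and 165.3 CPM in silenced samples. These groups did not overlap and differed 1.81-fold (log2 0.85, SE 0.07, edgeR adjusted p = 2.7e-04). NUP43 followed with a log2 fold change of 0.66, and NUP85 (0.30) and NUP133 (0.26) changed less. NUP160, the most abundant of these mRNAs, had 216.2, 213.2 and 216.0 CPM in control and 248.0, 238.0 and 237.8 CPM in silenced samples, a small difference outside the range of the controls (log2 0.17, SE 0.05, edgeR adjusted p = 0.0349). When each of the 6 samples was left out in turn, it never passed the test (log2 0.14 to 0.18). Among these 6 fits, NUP85 passed in 1, the fit without si-NC replicate 1, and NUP133 in 4, failing without si-NC replicate 1 or 3 (log2 0.23 to 0.28 over the 6). NUP37, also a Y complex subunit, had the opposite sign and did not pass (20.9 ± 2.36 against 16.6 ± 2.43 CPM, log2 -0.33, edgeR adjusted p = 0.11).

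Of the transmembrane nucleoporins, NDC1 and POM121 were higher and NUP210 was not called. NDC1 (chromosome 1 from 53765460 to 53838860), which is needed for pore insertion, had 103.3, 110.8 and 110.7 CPM in si-NC and 185.0, 199.8 and 173.7 CPM in si-METTL16 samples (log2 0.78, SE 0.07, edgeR adjusted p = 3.4e-04). It was also the most abundant mRNA of this class, with 19.8 ± 0.795 and 33.5 ± 2.32 FPKM (SD, n = 3). POM121 had 35.7, 33.7 and 29.6 CPM in control and 52.0, 53.4 and 56.8 CPM in silenced samples (log2 0.71, SE 0.09, edgeR adjusted p = 0.0014). POM121 has the near-identical copies POM121B and POM121C, which held 66.2% of the counts of these genes together, so the split among them is uncertain. POM121C was higher as well (log2 0.65). NUP210, a large lumenal glycoprotein, had overlapping groups (139.1 ± 7.6 and 146.6 ± 5.42 CPM, log2 0.08).

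In the central channel, NUP58 (log2 0.54) and NUP54 (log2 0.49), the partners of NUP62 in the channel trimer, were higher with narrow spreads. NUP62 itself varied widely among controls, with 22.6, 45.5 and 26.9 CPM in si-NC and 60.8, 45.1 and 40.2 CPM in si-METTL16 samples. Here si-NC replicate 2 lay within the silenced range, and NUP62 was not called (log2 0.62, SE 0.28, edgeR adjusted p = 0.121); without that sample it was called, at a log2 fold change of 0.97. DESeq2 called it with all samples. NUP98, which forms the cohesive barrier of the channel, had 352.7, 335.9 and 311.1 CPM in control and 398.9, 393.9 and 359.7 CPM in silenced samples. Its groups did not overlap, but the difference missed the threshold (log2 0.21, SE 0.07, edgeR adjusted p = 0.0531). The threshold was passed with limma on voom values, with replicate number as a block (log2 0.21, edgeR adjusted p = 0.028) and without si-METTL16 replicate 3 (log2 0.25, edgeR adjusted p = 0.0419).

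At the cytoplasmic face, genes moved in both directions. RANBP2 (NUP358, chromosome 2 from 108719481 to 108785811), the filament protein and SUMO ligase that binds Ran, had 351.4, 361.4 and 383.1 CPM in si-NC and 254.4, 261.5 and 239.3 CPM in si-METTL16 samples. Every silenced sample was below every control, at 68.9% of the control level (log2 -0.54, SE 0.06, edgeR adjusted p = 7.1e-04). RANBP2 is the most abundant mRNA of this face, and the summed level of its 3 genes went from 37.7 ± 1.1 to 30.5 ± 1.29 FPKM (SD, n = 3). The RGPD genes are near-identical copies of RANBP2 and held 39.6% of the joint counts, so the share of each is uncertain. Of these copies, RGPD5 (log2 -0.45) and RGPD6 (log2 -0.60) were also lower. RGPD1 (log2 -0.02), RGPD2 (log2 0.01), RGPD3 (log2 -0.16) and RGPD8 (log2 -0.18) were tested and not called. NUP88 was higher (log2 0.35, SE 0.08), whereas its partner NUP214 differed by less than the spread (53.5 ± 3.71 and 52.4 ± 1.93 CPM, log2 -0.03).

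In the nuclear basket, the filament protein TPR had 332.8, 344.8 and 345.8 CPM in control and 417.5, 428.2 and 419.9 CPM in silenced samples, with no overlap (log2 0.31, SE 0.05, edgeR adjusted p = 0.00255). NUP153, which anchors TPR, rose by a log2 fold change of 0.45 (SE 0.06). NUP50, a mobile basket protein that binds importin alpha, had 85.5, 40.3 and 86.9 CPM in si-NC and 87.6, 28.8 and 82.0 CPM in si-METTL16 samples. Replicate 2 was low in both groups, the groups overlapped and the log2 fold change was -0.10 (SE 0.44).

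**Figure D2:**
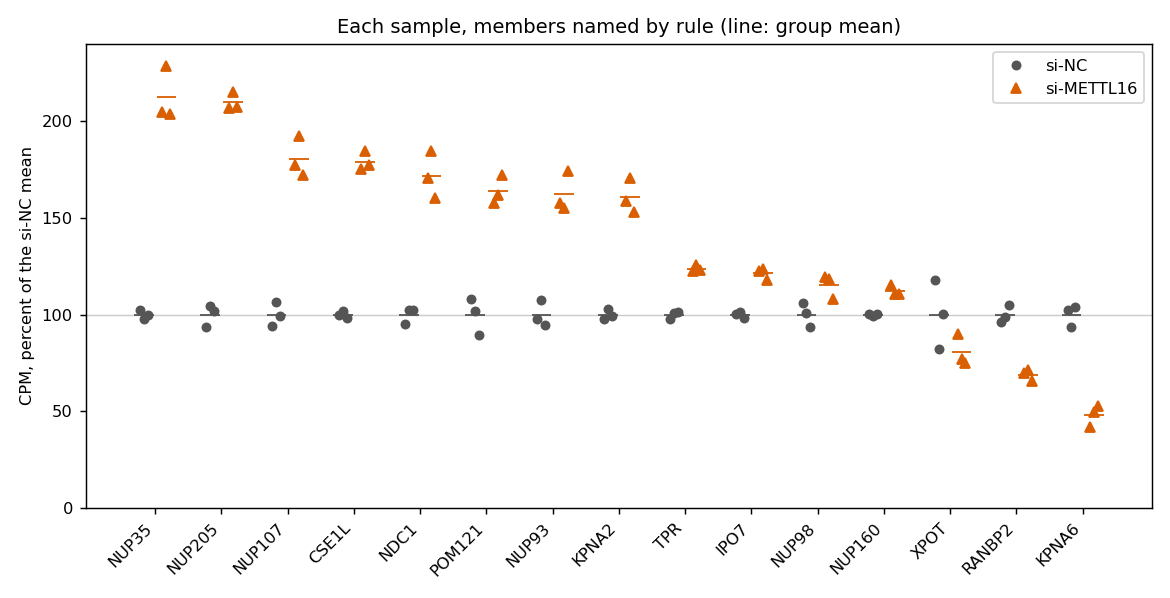
CPM of each sample as a percent of the si-NC mean for the 15 members given sample by sample under the rule (circles: si-NC, triangles: si-METTL16, lines: group means, n = 3 each). XPOT alone has overlapping groups, and KPNA6 and RANBP2 lie below the controls with no overlap.

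The importin alpha family had members that moved in opposite directions. KPNA2 (importin alpha 1, chromosome 17 from 68035519 to 68046842), an adaptor known to be abundant in dividing cells, had 175.9, 185.2 and 178.0 CPM in si-NC and 285.6, 306.7 and 275.5 CPM in si-METTL16 samples. That is a 1.61-fold difference between groups that were far apart (log2 0.69, SE 0.06, edgeR adjusted p = 3.1e-04). KPNA6 (importin alpha 7, chromosome 1 from 32108038 to 32176568), an adaptor of the subfamily that also holds KPNA1 and KPNA5, had 184.3, 168.6 and 187.4 CPM in control and 75.3, 89.1 and 94.6 CPM in silenced samples. It fell to 47.9% of the control level, the lowest log2 fold change of the 48 members (-1.06, SE 0.10, edgeR adjusted p = 3.4e-04). Its relatives KPNA1 (log2 -0.09) and KPNA5 (log2 -0.02) had overlapping groups. KPNA3 (-0.19) and KPNA4 (0.16), which form another subfamily, had non-overlapping groups in opposite directions, and neither was called (edgeR adjusted p = 0.0658 and 0.0986). KPNA3 was called lower with all samples by limma on log2(FPKM + 1) and log2(FPKM + 0.1) and in edgeR with library totals alone, and also without si-METTL16 replicate 2 (log2 -0.24).

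Shares within the family differed as well. Summed over KPNA1 to KPNA7, the level was 126.6 ± 1.69 FPKM in si-NC and 139.1 ± 4.79 FPKM in si-METTL16 samples (SD, n = 3). KPNA2 held 29.9%, 32.3% and 30.4% of this sum in the controls and 43.6%, 45.8% and 44.2% in the silenced samples. Its share was 13.7 percentage points higher (exact permutation test, two-sided p = 0.1, which no split of 3 against 3 samples can go below). KPNA6 went from 13.9% ± 0.612 to 5.98% ± 0.829 of the sum, and KPNA3 from 20.1% ± 0.63 to 15.8% ± 0.495 (SD, n = 3). KPNA4 kept a like share, with 23.8% ± 0.747 and 23.9% ± 1.56. KPNA7, an adaptor of the early embryo, had 3 to 9 counts per sample and was not tested.

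**Figure D3:**
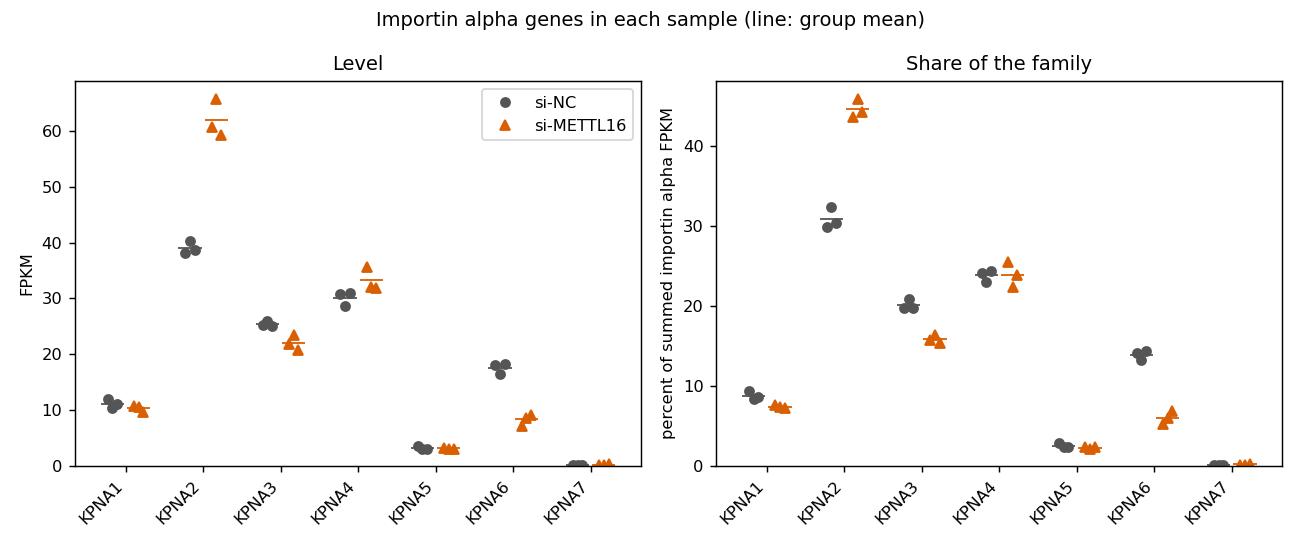
FPKM (left) and percent of the summed importin alpha FPKM (right) of KPNA1 to KPNA7 in each sample (circles: si-NC, triangles: si-METTL16, lines: group means, n = 3 each). KPNA2 takes 29.9% to 32.3% in the controls and 43.6% to 45.8% in the silenced samples, while KPNA6 goes from a mean of 13.9% to 5.98%.

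Of 11 import receptors of the importin beta family, 4 (36.4%) were higher and 0 were lower in edgeR's test, and 0 were lower with DESeq2. Of all tested genes, 18.4% were higher and 17.5% lower in edgeR's test. KPNB1 (importin beta 1), the carrier of importin alpha, had 676.6, 752.7 and 740.6 CPM in si-NC and 1044, 1051 and 1082 CPM in si-METTL16 samples (log2 0.55, SE 0.06, edgeR adjusted p = 5.0e-04). TNPO3, which imports SR splicing factors, followed at a log2 fold change of 0.48 (SE 0.06). IPO7, a carrier of ribosomal proteins and histones, was the most abundant mRNA of all members, with 110.9 ± 1.77 FPKM in control and 132.6 ± 2.97 FPKM in silenced samples. In CPM it had 954.6, 969.1 and 937.4 in control and 1168, 1180 and 1124 in silenced samples, with no overlap (log2 0.28, SE 0.04, edgeR adjusted p = 0.00312). IPO9 was higher by a log2 fold change of 0.23. The other 7 were not called: IPO11 (0.34), IPO5 (0.21), TNPO2 (0.15), IPO13 (0.14), TNPO1 (0.01), IPO4 (-0.02) and IPO8 (-0.20) on the log2 scale. Of these, only IPO8 had an unadjusted p under 0.05 in the lower direction with edgeR, and it was called lower with replicate number as a block. IPO11 was called higher with that block, by DESeq2 and by limma on voom values with all samples, and without si-NC replicate 2 (log2 0.44). IPO5 was called higher without si-METTL16 replicate 1 (log2 0.30). TNPO1, which imports hnRNP proteins and is an abundant carrier at 40.6 FPKM, had nearly equal means of 570.0 ± 8.65 and 572.2 ± 24.1 CPM (SD, n = 3).

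Of 7 exportins, 3 (42.9%) were higher, namely CSE1L, XPO1 and XPO5, against 18.4% of all tested genes. CSE1L (chromosome 20 from 49046246 to 49096960), the recycling factor of importin alpha, had 198.6, 203.2 and 196.2 CPM in si-NC and 349.3, 368.3 and 353.2 CPM in si-METTL16 samples. The spread within each group was small beside this 1.79-fold difference (log2 0.84, SE 0.05, edgeR adjusted p = 1.1e-04). XPO1 (CRM1), the main exporter of proteins with leucine-rich signals, was higher by a log2 fold change of 0.38 (SE 0.05), and XPO5, the exporter of precursor miRNAs, by 0.28 (SE 0.06). XPOT, which exports tRNA, was the most abundant exportin in si-NC cells at 67.4 ± 12.1 FPKM. It had 672.8, 468.0 and 571.6 CPM in control and 512.8, 438.4 and 428.8 CPM in silenced samples. Here the groups overlapped and the difference was not called (log2 -0.31, SE 0.13, edgeR adjusted p = 0.114). It was called lower only without si-NC replicate 2 (log2 -0.44, edgeR adjusted p = 0.0264) and with replicate number as a block (log2 -0.3, edgeR adjusted p = 0.0397). XPO7 (log2 0.38, edgeR adjusted p = 0.0522), XPO6 (log2 0.09) and XPO4 (log2 0.03) did not pass either, although XPO7 was called higher by DESeq2 and by limma on voom values with all samples, and without si-NC replicate 2 (log2 0.49).

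**Figure D4:**
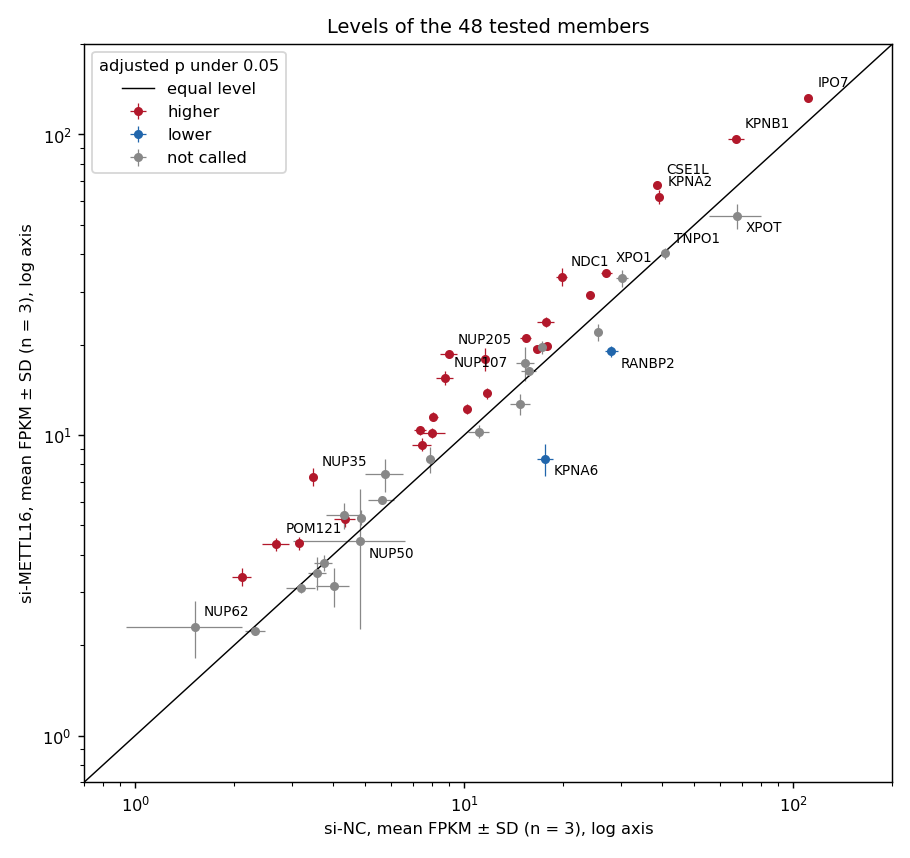
Mean FPKM of the 48 tested members in si-NC (horizontal) and si-METTL16 (vertical) samples on log axes, with SD bars (n = 3) and a line of equal level. IPO7 is the highest at 110.9 and 132.6 FPKM, and KPNA6 lies farthest below the line at 17.6 and 8.31 FPKM.

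The untested members carried almost no reads. The 6 pseudogenes had 0 or 1 count in every sample, and NUP210L, a relative of NUP210, had 0 to 4 counts. Reads that match pseudogenes or copies as well as a member could still be assigned to either, but outside RANBP2 and POM121 the listed copies held little: 0.53% of the joint counts for KPNA2, 0.397% for IPO5 and 0.347% for IPO7. Whether the counting used strand is not given in the sources used here. In GENCODE v44, 20 tested members share exon bases with a gene on the opposite strand, 12 of them called members. The share of exon bases was 31.7% for NUP88 with RABEP1, 18.7% for POM121 with NSUN5P2, 11.7% for NUP54 with ART3 and 10.6% for NUP153 with NUP153-AS1, and lower for the other called members. On the same strand, 8.88% of the exon bases of KPNA6 lie in a lncRNA gene, and 68.7% of those of IPO4 lie in an overlapping coding gene.

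Promoter sequences are shown for the 8 highest and the 2 lower called members, with motif matches in capitals. RefSeq (GRCh38.p14) gave a promoter, from 250 bases before to 50 after the annotated start site, for 43 of the 48 tested members. The motifs were CACGTG (E-box, the MYC type of site), TTTGAA and TTCGAA (the CHR element of cell cycle genes), TTTGGCGC, TTTCGCGC and TTTCCCGC (E2F type) and CCAAT (the NF-Y box), each on both strands. The following are 300 bases each, 5′ to 3′ on the strand of the gene. They lie at chr2:183124193-183124492 (NUP35), chr7:135557667-135557966 (NUP205), chr12:68686728-68687027 (NUP107), chr20:49046062-49046361 (CSE1L), chr1:53838247-53838546 (NDC1), chr7:72879107-72879406 (POM121), chr16:56729879-56730178 (NUP93), chr17:68035485-68035784 (KPNA2), chr2:108719232-108719531 (RANBP2) and chr1:32107806-32108105 (KPNA6), on the minus strand for NDC1 and on the plus strand for the others.
NUP35: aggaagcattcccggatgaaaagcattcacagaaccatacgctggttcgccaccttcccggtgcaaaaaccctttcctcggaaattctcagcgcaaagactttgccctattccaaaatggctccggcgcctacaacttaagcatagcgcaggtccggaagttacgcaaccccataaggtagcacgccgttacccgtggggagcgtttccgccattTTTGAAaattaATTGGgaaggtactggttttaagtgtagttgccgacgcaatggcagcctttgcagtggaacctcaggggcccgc
NUP205: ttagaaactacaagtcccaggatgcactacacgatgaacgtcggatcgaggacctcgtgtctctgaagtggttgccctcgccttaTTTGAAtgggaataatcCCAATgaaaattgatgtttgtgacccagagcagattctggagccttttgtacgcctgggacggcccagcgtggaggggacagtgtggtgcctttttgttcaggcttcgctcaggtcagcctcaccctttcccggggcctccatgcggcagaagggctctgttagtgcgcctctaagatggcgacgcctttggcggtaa
NUP107: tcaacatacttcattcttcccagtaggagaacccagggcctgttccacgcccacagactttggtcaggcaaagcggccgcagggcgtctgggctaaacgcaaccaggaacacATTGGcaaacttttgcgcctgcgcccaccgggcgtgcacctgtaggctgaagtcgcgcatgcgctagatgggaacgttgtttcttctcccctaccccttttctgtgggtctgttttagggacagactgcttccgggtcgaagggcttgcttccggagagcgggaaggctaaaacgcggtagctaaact
CSE1L: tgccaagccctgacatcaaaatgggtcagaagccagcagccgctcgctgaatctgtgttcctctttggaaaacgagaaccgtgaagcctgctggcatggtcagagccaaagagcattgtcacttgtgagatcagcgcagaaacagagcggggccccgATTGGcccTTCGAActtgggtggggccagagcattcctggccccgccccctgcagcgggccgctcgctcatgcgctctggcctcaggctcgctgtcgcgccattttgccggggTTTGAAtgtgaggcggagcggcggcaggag
NDC1: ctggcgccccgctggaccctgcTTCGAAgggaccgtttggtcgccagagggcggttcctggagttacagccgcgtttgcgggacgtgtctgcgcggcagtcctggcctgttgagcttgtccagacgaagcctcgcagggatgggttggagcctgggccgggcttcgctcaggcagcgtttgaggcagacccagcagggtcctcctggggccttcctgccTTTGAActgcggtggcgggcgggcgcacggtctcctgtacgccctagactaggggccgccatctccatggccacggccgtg
POM121: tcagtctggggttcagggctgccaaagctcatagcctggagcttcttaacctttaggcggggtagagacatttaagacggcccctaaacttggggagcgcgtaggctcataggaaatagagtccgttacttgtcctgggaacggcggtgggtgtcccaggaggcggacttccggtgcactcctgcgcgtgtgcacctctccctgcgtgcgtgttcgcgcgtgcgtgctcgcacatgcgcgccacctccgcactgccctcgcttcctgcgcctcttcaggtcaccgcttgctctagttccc
NUP93: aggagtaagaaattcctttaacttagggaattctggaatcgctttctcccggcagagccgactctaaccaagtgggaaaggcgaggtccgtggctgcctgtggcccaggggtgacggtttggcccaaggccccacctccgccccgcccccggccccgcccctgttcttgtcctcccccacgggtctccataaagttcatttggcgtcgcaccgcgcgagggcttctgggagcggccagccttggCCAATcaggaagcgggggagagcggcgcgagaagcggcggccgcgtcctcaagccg
KPNA2: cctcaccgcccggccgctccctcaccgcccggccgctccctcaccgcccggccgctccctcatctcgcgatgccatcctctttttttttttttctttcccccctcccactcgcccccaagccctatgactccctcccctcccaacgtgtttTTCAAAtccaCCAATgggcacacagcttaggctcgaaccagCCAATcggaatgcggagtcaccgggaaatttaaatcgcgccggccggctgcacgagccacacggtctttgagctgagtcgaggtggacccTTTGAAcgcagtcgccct
RANBP2: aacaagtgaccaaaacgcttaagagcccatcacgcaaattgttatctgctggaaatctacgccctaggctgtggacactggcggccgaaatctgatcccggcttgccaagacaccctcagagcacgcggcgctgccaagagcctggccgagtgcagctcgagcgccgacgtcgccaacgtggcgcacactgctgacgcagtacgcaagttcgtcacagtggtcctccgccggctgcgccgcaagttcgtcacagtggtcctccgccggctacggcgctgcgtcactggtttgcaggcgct
KPNA6: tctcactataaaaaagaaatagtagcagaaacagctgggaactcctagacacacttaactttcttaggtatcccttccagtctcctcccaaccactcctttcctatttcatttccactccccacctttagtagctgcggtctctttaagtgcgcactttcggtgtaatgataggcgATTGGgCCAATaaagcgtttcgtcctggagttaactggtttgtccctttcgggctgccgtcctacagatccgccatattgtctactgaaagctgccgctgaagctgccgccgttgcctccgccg
Of the 8 highest members, NUP35, NUP205, CSE1L and KPNA2 hold both CHR and CCAAT matches, NDC1 holds 2 CHR matches and no CCAAT match, NUP107 and NUP93 hold 1 CCAAT match each and no CHR match, and POM121 holds none of the motifs. In NUP35 the CHR match starts 35 bases before the start site and the CCAAT match, on the opposite strand, 24 bases before it. Of the lower members, KPNA6 holds 2 CCAAT matches side by side, and RANBP2 holds none of these letters in this window. No E-box or E2F match stands in any of the sequences shown. The RefSeq start site of NUP35 lies 6930 bases inside the gene start of the deposited table, and those of the other members shown lie within 564 bases of it.

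Over the members with a promoter, CHR matches were found in 10 (23.3%) and CCAAT matches in 20 (46.5%), compared with 16.6% and 35.7% of all 27305 promoters. E-box matches were found in 6 (14.0%, all promoters 7.43%) and E2F matches in 3 (6.98%, all promoters 2.79%). Of the 23 higher members with a promoter, 7 (30.4%) held a CHR and 11 (47.8%) a CCAAT match, and of the 18 members not called, 3 (16.7%) held a CHR and 8 (44.4%) a CCAAT match. E-box matches stood in 2 (8.7%) of the higher members and 4 (22.2%) of those not called, and E2F matches in 2 (8.7%) and 1 (5.56%). The 27305 promoters include those of genes outside the 15089 tested here, so the tested members and this background are unlike sets. These shares are descriptions with no test, and a match in letters is not a bound site.

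**Figure D5:**
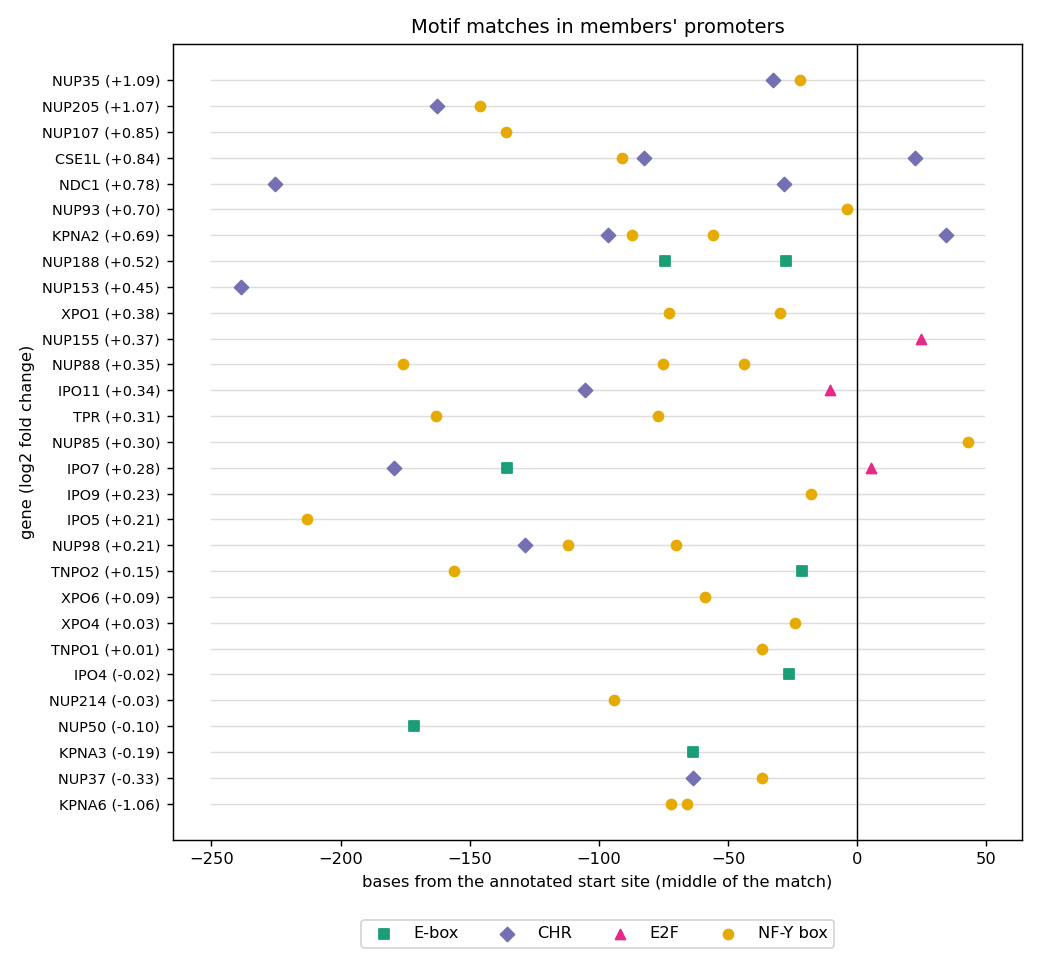
Positions of motif matches, in bases from the annotated start site, in the promoters of the members that hold any, ordered by log2 fold change (in brackets). Near the top, CHR matches (diamonds) stand in NUP35, NUP205, CSE1L, NDC1 and KPNA2 but not in NUP107 or NUP93, and near the bottom NUP37 (not called) holds a CHR match and KPNA6 holds 2 NF-Y boxes.

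METTL16 is known to methylate an adenosine within a nonamer of U6 snRNA and of hairpins in MAT2A mRNA. This nonamer, TACAGAGAA in DNA letters, was looked for in the MANE Select transcripts of GENCODE v44, and it was found in 2 of 48 tested members (4.17%) and in 653 of 19061 transcripts in all (3.43%). The sites are shown with 8 bases on each side and the nonamer in capitals.
NUP58: caatggaaTACAGAGAAacactctc
IPO5: gtcaatgcTACAGAGAActgcatct
The site of NUP58 (higher) starts at base 1051 of its transcript of 4236 bases, and that of IPO5 (not called) at base 3138 of 6002. KPNA6 and RANBP2, the members that were lower, hold no such letters in these transcripts. Only these exact letters were searched, without introns, variant forms or hairpin folds. Whether METTL16 acts on the mRNA of any member was not tested.

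Other genes of the transport machinery, outside the symbol rule, gave similar counts. Of 25 listed genes, 24 were tested (RANBP17 was at 0 counts), and 14 (58.3%) were higher and 0 lower in edgeR's test, with a median log2 fold change of 0.36. Of all tested genes, 18.4% were higher and 17.5% lower. DESeq2 also called 0 of them lower, and 2 had an unadjusted p under 0.05 in the lower direction with edgeR. RAN, the GTPase itself, rose from 27.9 ± 1.37 to 38.1 ± 2.85 FPKM (SD, n = 3; log2 0.47, SE 0.07, edgeR adjusted p = 0.00273), and its activating protein RANGAP1 rose by 0.48 on the log2 scale. The exchange factor RCC1 had a log2 fold change of 0.65 without passing the test (edgeR adjusted p = 0.079), and NUTF2, which imports Ran, had -0.28 (edgeR adjusted p = 0.0928). Among pore proteins with other symbols, 5 of 8 were higher. They included SEH1L (log2 0.39) and AHCTF1 (log2 0.36), which belong to or recruit the Y complex, and the mRNA export factor GLE1 (log2 0.52). POM121C (log2 0.65) was another of these 5, and as a near-identical copy of the member POM121 it is not a separate observation. AAAS was closest to a call in the lower direction (log2 -0.33, edgeR adjusted p = 0.0553), and was called lower without si-METTL16 replicate 2. Of the mRNA export receptor, NXF1 (log2 0.32) and its partner NXT1 (log2 0.55) were both higher. The count of higher genes in this list was 9 without si-NC replicate 1, 9 without si-NC replicate 3 and 8 without si-METTL16 replicate 3.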

How the data were processed

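RNA-seq data of 3 si-NC and 3 si-METTL16 samples of PANC-1 cells were used, with groups and replicate numbers from the titles. Raw counts and FPKM (counts scaled by gene length and by total count) were deposited by the authors. Submitters' processing notes name HISAT2 2.0.4, StringTie 1.3.0 and GRCh38. Coordinates are those of the deposited table, and 19 of the 56 members have identical positions in GENCODE v44. Genes passing filterByExpr (minimum count 10, minimum total count 15) were scaled by TMM and tested by the quasi-likelihood functions (glmQLFit, glmQLFTest) from edgeR 4.0.16 under R 4.3.3. P-values were adjusted by Benjamini-Hochberg, with 0.05 as threshold. The study's methods name limma. As raw counts were deposited, edgeR was used, and limma 3.58.1 was an alternative beside DESeq2 1.42.0, its size factors, library totals alone, no filter, a replicate block and leaving out each sample.

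Sample values are given for the 8 highest and 8 lowest called members and the most abundant of each role group, and further members were named within their roles. Members and lists were chosen with earlier results of these data known, and the nonamer, NUP50, NUP62 and the sample values of KPNB1 were added after values were seen. P-values measure the spread between samples described only as biological triplicates. No replicates agreed within sampling noise (chi-square per degree of freedom 15.9 to 19.6). Scripts were tested on simulated data.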

Additional observations from a re-analysis of the deposited data

How the results depend on the processing

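Of the 27 called members, 24 (22 higher and 2 lower) were called under each of the 14 alternatives run, and none of the 15 members given by rule changed sign. Some members that were not called did so among the leave-one-out fits. The widest log2 range was that of NUP50 (-0.39 to 0.26). The others were IPO4 (-0.12 to 0.06), NUP214 (-0.09 to 0.01), KPNA5 (-0.08 to 0.06), XPO4 (-0.03 to 0.08) and TNPO1 (-0.03 to 0.03). Of the called members, NUP160, NUP85 and NUP133 were lost in some alternatives. With the replicate block, 29 members were called, 25 of them shared, and 4 were lower instead of 2 (XPOT and IPO8 added). Same-numbered samples had deviations correlated at 0.0253, 0.0371 and 0.0298, each the highest for its number but under 0.1, so the numbers were not taken as pairs. The median log2 fold change of members was 0.23 with limma on log2(FPKM + 1). The KPNA2 share differed by 10.6 points with summed CPM, which is not per length. Among other transport genes, the leave-one-out fits called 8 to 14 higher and 0 to 1 lower, with AAAS lower without si-METTL16 replicate 2. AAAS was also the 1 gene lower with limma on voom values, on log2(FPKM + 1) and on log2(FPKM + 0.1), and with library totals alone. The causes were not tested. Scaling moved the median of all genes by at most -0.022 (log2). The biological coefficient of variation common to all tested genes was 16.5%, which is not the spread of any single member. With 3 samples per group, some small differences lay near the limit of detection. NUP98 (log2 0.21, SE 0.07) missed the threshold, while NUP160 (log2 0.17, SE 0.05) and IPO9 (log2 0.23, SE 0.05) passed it.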

Other observations

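NUP50 had counts of 1444, 684 and 1523 in si-NC replicates 1, 2 and 3 and of 1437, 449 and 1474 in si-METTL16 replicates, so that both samples numbered 2 were the lowest of their group. A search made after seeing NUP50 counted the tested genes for which both samples of a number were at or below 0.6 of every other sample. It found 18 genes for number 1, 16 for number 2 and 14 for number 3.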
